A study of Mus musculus with 24 samples.

Results

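Ngfr, Bdnf and Sort1 encode the neurotrophin receptor p75, the neurotrophin BDNF and sortilin, and these 3 genes of the 35968 summed from the deposited tables are described here. They were chosen by name, with earlier results of the same data known, and which values guided the choice was not recorded, so their own fold changes are given as a description without p-values. RNA was measured in C2C12 cells, a mouse myoblast line, that were undifferentiated and subconfluent. For 48 h before harvest the cells had been treated with siRNA directed at Keap1 (siKeap1), at Fem1b (siFem1b), at both genes (siFem1b/Keap1) or at no mouse gene (siCont). Each of the 4 groups held 3 libraries, each library was sequenced in 2 runs that were added, and each target was addressed by 1 siRNA sequence. KEAP1 and FEM1B are substrate receptors of ubiquitin ligases, KEAP1 for the antioxidant transcription factor NRF2 and FEM1B for FNIP1, which is degraded under reductive stress.

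The p75 receptor belongs to the TNF receptor family and binds all mature neurotrophins, and it binds their uncleaved proforms with higher affinity when it sits beside sortilin. Depending on its partner it promotes survival together with Trk receptors, or death and growth cone collapse together with sortilin or the Nogo receptor. Muscle precursor cells are known to carry p75 and to make BDNF themselves, and p75 is known to decline as myotubes form. Sortilin is also a sorting receptor that shuttles cargo, BDNF and the glucose transporter vesicles among it, between the Golgi, endosomes and the cell surface.

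Libraries held between 31.9 and 43.0 M counts over genes and between 18690 and 19973 genes with a count, and 14577 genes were tested. Keap1 averaged 9.99 ± 1.30 CPM with siKeap1 and 9.38 ± 0.19 CPM with both siRNAs, against 61.8 ± 1.4 CPM in siCont (SD, n = 3 each). Fem1b averaged 13.2 ± 0.42 CPM with siFem1b and 12.7 ± 1.3 CPM with both, against 96.9 ± 4.0 CPM in siCont (SD, n = 3 each). CPM stands for counts per 1 M counts of a library whose size was scaled by TMM, a trimmed mean of log ratios between libraries. Nothing in the labels says whether the 3 libraries of a group were separate cultures, so the errors may be technical. The myoblast markers Des, Myod1 and Myf5 were at 676, 88.3 and 34.2 CPM in siCont.

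Ngfr lies on chr11:95568818-95587735, minus strand, on GRCm38, and its single annotated transcript has 6 exons. Its promoter is shown because Ngfr carries the differences described here. The 300 bases, from 250 before to 50 after the start, are those RefSeq gives for chr11:95587649-95587948 on GRCm38.p6, minus strand, and the capitals mark the E-box motif.
Ngfr promoter: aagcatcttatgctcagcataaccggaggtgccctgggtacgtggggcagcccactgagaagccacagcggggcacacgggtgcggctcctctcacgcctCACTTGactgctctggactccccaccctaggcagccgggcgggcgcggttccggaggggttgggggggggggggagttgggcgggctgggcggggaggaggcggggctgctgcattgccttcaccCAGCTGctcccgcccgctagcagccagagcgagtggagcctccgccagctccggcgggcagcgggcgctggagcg
The E-box letters CANNTG, searched on both strands, matched 2 times in this window, and 72.3% of 32851 mouse promoters of that length held a match. GC box letters (GGGCGG) matched 4 times, with a match in 35.7% of all promoters, and no match overlapped an E-box. The core of the antioxidant response element to which NRF2 binds (TGACNNNGC) had 0 matches here and was held by 12.4% of promoters. The cAMP response element (TGACGTCA) had 0 matches too, and 1.79% of promoters held it. Of the 7 Bdnf start sites in the same promoter set, 6 had an E-box and 0 had either of the last 2 motifs. The start of Bdnf-205, the main Bdnf transcript, was not among them, and Sort1 had no entry, so neither was searched. A match is a string of letters and was not tested as a binding site.

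Bdnf lies on chr2:109674700-109727007, plus strand, where alternative first exons are spliced to a shared last exon that holds the coding sequence of mature BDNF. Sort1 lies on chr3:108284082-108361511, plus strand, and its main transcripts, Sort1-203 and a shorter one, differ by an exon of 99 bases and in where they start and end. That exon, the 18th of 21 in Sort1-203, lies inside the coding sequence at chr3:108355472-108355570 and adds 33 codons in frame. Its inclusion is known to be repressed by the RNA-binding protein TDP-43 in brain, and it is shown in capitals with 15 bases of the neighbouring exons on each side because it tells the isoforms apart.
Sort1 exon 18: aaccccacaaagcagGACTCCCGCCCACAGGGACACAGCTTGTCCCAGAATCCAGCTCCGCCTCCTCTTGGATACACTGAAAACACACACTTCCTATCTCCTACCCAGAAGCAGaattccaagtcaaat

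An siRNA can also act on transcripts that pair with its seed, guide bases 2 to 8, so these 7 bases were searched in the transcripts. The Ngfr transcript and Bdnf-205, the main one of Bdnf, had 0 sites for the seeds of siKeap1, siFem1b and siCont. Both Sort1 transcripts had 0 sites for siKeap1 and 3 for siFem1b, of which 2 lay in the coding sequence and 1 in the 3′ UTR, and the shorter one had 1 site for siCont in the 3′ UTR, at chr3:108361453-108361459, past the annotated end of Sort1-203. The siFem1b site in the 3′ UTR, at chr3:108359729-108359735, is shown with the seed match in capitals.
Sort1 site of siFem1b: ttttttaCAGAATTtgtgctt
Among 13871 tested genes with a coding transcript, 23.5% held a seed match of siFem1b somewhere and 12% in the 3′ UTR.

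Ngfr, the receptor, was lower with each targeting siRNA and lowest with both. It reached 27.3, 27.9 and 23.6 CPM with siKeap1 (875, 1075 and 895 counts). With siFem1b it reached 16.7, 14.7 and 14.9 CPM (679, 526 and 567 counts). With both siRNAs it reached 5.84, 5.18 and 5.56 CPM (224, 199 and 185 counts), against 59.5, 58.6 and 55.8 CPM in siCont (2280, 1840 and 2284 counts). No 2 of the 4 groups overlapped, so the order siFem1b/Keap1, siFem1b, siKeap1, siCont runs upward with a gap at every step. How many of all genes tested had groups so separated was not counted, so nothing is read from the gaps. Group means were 26.3 ± 2.3 CPM with siKeap1, 15.4 ± 1.1 CPM with siFem1b and 5.53 ± 0.33 CPM with both, against 58.0 ± 1.9 CPM in siCont (SD, n = 3 each).

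The fitted log2 fold changes of Ngfr were -1.14 (SE 0.063) for siKeap1, -1.91 (SE 0.066) for siFem1b and -3.39 (SE 0.076) for both, each against siCont. Those are levels 2.21-fold, 3.75-fold and 10.5-fold lower. In the same order, 183, 41 and 3 of the 14577 genes tested had a lower log2 fold change than Ngfr. In bulk RNA, fewer cells with the transcript and less of it per cell cannot be told apart.

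**Figure D1:**
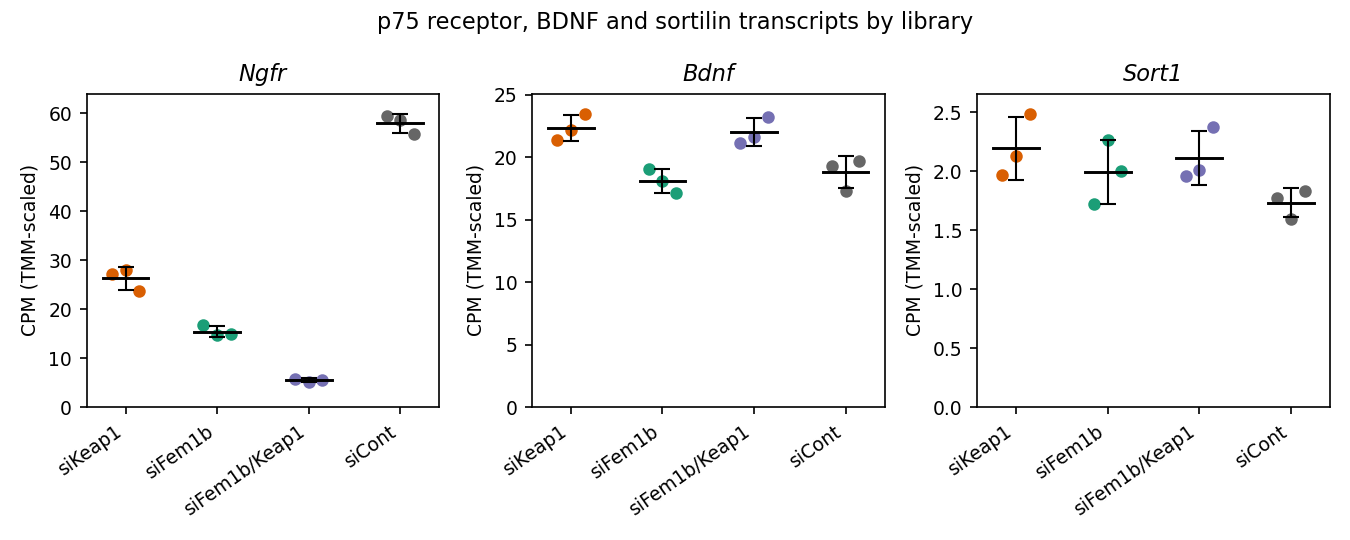
TMM-scaled CPM (y axis, from 0) of Ngfr, Bdnf and Sort1 in the 4 siRNA groups. Points are libraries and bars are the mean ± SD of 3. The 3 libraries with both siRNAs sat between 5.18 and 5.84 CPM for Ngfr, below all others, while Bdnf stayed between 17.1 and 23.5 CPM and Sort1 between 1.59 and 2.48 CPM.

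Each siRNA went with a lower Ngfr level also on top of the other. With both siRNAs Ngfr was 2.79-fold lower than with siFem1b alone (log2 -1.48, SE 0.082) and 4.75-fold lower than with siKeap1 alone (log2 -2.25, SE 0.079). Between the single siRNAs, it was 1.70-fold lower with siFem1b than with siKeap1 (log2 -0.77, SE 0.068). As a share of the siCont level, Ngfr stood at 45.3% with siKeap1, 26.6% with siFem1b and 9.54% with both, where the product of the separate shares is 12.1%. The interaction term, the effect of siKeap1 on cells with siFem1b less its effect on cells without, was -0.34 on the log2 scale (SE 0.10). It passed an adjusted p of 0.05 with all libraries and lost that call without siKeap1 replicate 1 or 2, siFem1b replicate 1, siFem1b/Keap1 replicate 2 or any siCont library. Over the 12 omissions its value lay between -0.42 and -0.28. Since Ngfr was chosen with earlier results of these data known, the call is a description and not a test.

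**Figure D2:**
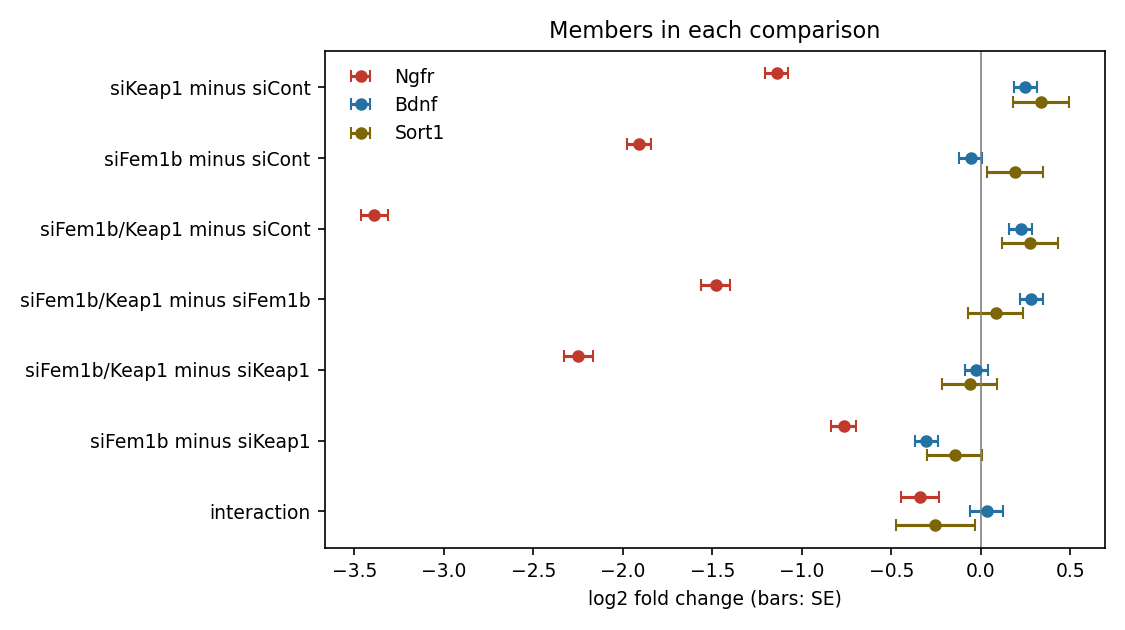
Log2 fold changes (x axis) of Ngfr, Bdnf and Sort1 in the 6 pairwise comparisons and the interaction, with bars of 1 SE. Ngfr lies left of 0 in every comparison, from -3.39 to -0.34, and Bdnf and Sort1 lie between -0.31 and 0.34.

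How many of the 3 genes passed an adjusted p of 0.05 is set here beside the share of all genes that did. With siKeap1, 1 was higher and 1 lower, where 42.2% of all genes passed, 18.4% higher and 23.8% lower. With siFem1b, 0 were higher and 1 lower, where 62.1% passed, 30% higher and 32.1% lower. With both siRNAs 1 was higher and 1 lower, where 67.5% passed, 33.8% higher and 33.7% lower. For both siRNAs against siFem1b alone, 1 was higher and 1 lower, where 43.1% of genes passed, 21.3% higher and 21.8% lower. Against siKeap1 alone, both siRNAs had 0 higher and 1 lower, where 63.6% passed, 32% higher and 31.6% lower. For siFem1b against siKeap1, 0 were higher and 2 lower, where 63.9% of genes passed, 32.1% higher and 31.8% lower. In the interaction 0 were higher and 1 lower, where 11.4% passed, 6.11% higher and 5.32% lower. Since the genes were chosen with these contrasts known, nothing is read from these counts.

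**Figure D3:**
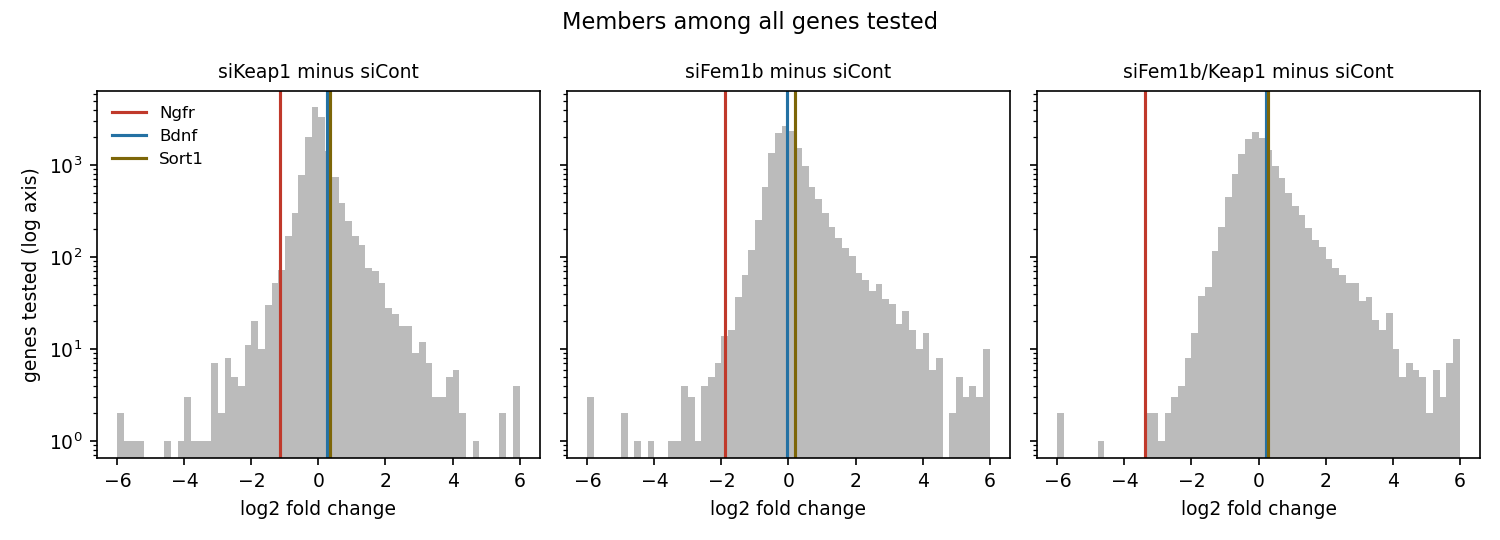
Distribution of log2 fold changes (x axis) over the 14577 genes tested (y axis, number of genes, log scale) against siCont, with genes beyond 6 either way placed in the end bins. Coloured lines mark Ngfr, Bdnf and Sort1. The Ngfr line moves towards the left edge, and only 3 genes lie below it with both siRNAs.

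Bdnf, the ligand among the 3 genes, had a narrow range. It reached 21.4, 22.2 and 23.5 CPM with siKeap1 and 19.0, 18.1 and 17.1 CPM with siFem1b. With both siRNAs it reached 21.1, 21.6 and 23.3 CPM, against 19.3, 17.3 and 19.7 CPM in siCont. The siKeap1 and siFem1b/Keap1 libraries overlapped each other, as did the siFem1b and siCont libraries. The first pair of groups lay wholly above the second, and how many genes show such a split was not counted. In counts, Bdnf had between 544 and 888 per library.

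Against siCont, the Bdnf log2 fold change was 0.25 (SE 0.064) for siKeap1, -0.06 (SE 0.065) for siFem1b and 0.22 (SE 0.064) for both. Bdnf was higher with both siRNAs than with siFem1b alone (log2 0.28, SE 0.064), and within 1 SE of the level with siKeap1 alone (log2 -0.02, SE 0.064). With siFem1b it was lower than with siKeap1 (log2 -0.31, SE 0.064). The interaction was 0.03 (SE 0.091).

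Of the 11 annotated Bdnf transcripts, 1 held most of the counts. Bdnf-205, whose first exon at chr2:109693563-109693909 is exon VI in the usual mouse numbering, took 88.6 ± 3.1% of the gene's estimated counts with siKeap1 and 92.9 ± 0.73% with siFem1b. It took 91.0 ± 3.4% with both siRNAs, against 92.7 ± 3.3% in siCont (SD, n = 3 each). Bdnf-206 took 3.94 ± 0.94% with siKeap1, 1.83 ± 1.78% with siFem1b and 1.05 ± 0.59% with both, against 1.10 ± 1.37% in siCont (SD, n = 3 each). The siKeap1 libraries, at 3.29% to 5.02%, overlapped those of siFem1b, which reached 3.55%. Bdnf-209 took 4.15 ± 1.88%, 3.50 ± 2.33% and 5.53 ± 0.88% in the 3 knockdown groups in that order, against 3.98 ± 0.83% in siCont (SD, n = 3 each). All 11 share the last exon, so the shares rest on reads in the first exons and at the junctions. An annotated antisense gene, Gm45346, overlaps the most upstream first exons of Bdnf, and whether counting used strand is not given in the sources used here.

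Sort1, the co-receptor, had few counts. It had 63, 82 and 94 counts with siKeap1 and 70, 81 and 76 with siFem1b. With both siRNAs it had 75, 77 and 79 counts, against 68, 50 and 75 in siCont. In CPM these were 1.97, 2.13 and 2.48 with siKeap1, 1.72, 2.26 and 2.00 with siFem1b and 1.96, 2.01 and 2.38 with both, against 1.77, 1.59 and 1.83 in siCont. The 3 knockdown groups overlapped one another, siFem1b overlapped siCont as well, and the lowest siKeap1 and siFem1b/Keap1 libraries lay just above the highest siCont library.

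Its log2 fold changes were 0.34 (SE 0.16) for siKeap1, 0.19 (SE 0.16) for siFem1b and 0.28 (SE 0.16) for both against siCont. Between the knockdown groups, Sort1 differed by -0.15 to 0.08 on the log2 scale, within 1 SE of 0. Differences of this size were not resolved at this depth. With the first run alone the siKeap1 and siFem1b/Keap1 values were 0.79 and 0.73, both past an adjusted p of 0.05 that the values from both runs did not reach. Gm12523 is annotated antisense over the first exon of Sort1, so reads there could be shared with it. Gm43099 lies on the same strand within the first intron of Sort1 and overlaps none of its exons.

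The extra exon of Sort1-203 could not be followed at this depth. Sort1-203 took 58.0 ± 8.6% of the estimated counts with siKeap1 and 45.8 ± 13.9% with siFem1b. It took 31.6 ± 16.6% with both siRNAs, against 55.9 ± 16.8% in siCont (SD, n = 3 each). In siFem1b the group's share was 88.6% from the first runs and 29.0% from the second runs, a wider gap than between any groups.

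Per transcript length, in TPM, Ngfr exceeded Bdnf with siKeap1 and in siCont, came within the SD of it with siFem1b and was below it with both siRNAs. Ngfr averaged 11.4 ± 1.2 TPM with siKeap1, 7.36 ± 0.30 TPM with siFem1b and 2.59 ± 0.15 TPM with both, against 25.3 ± 1.0 TPM in siCont (SD, n = 3 each). Bdnf averaged 8.29 ± 0.27, 7.41 ± 0.27 and 8.83 ± 0.33 TPM in the same knockdown groups, against 7.04 ± 0.70 TPM in siCont. The ratio of Bdnf to Ngfr was therefore 0.735 ± 0.10 with siKeap1, 1.01 ± 0.045 with siFem1b and 3.42 ± 0.28 with both, against 0.278 ± 0.025 in siCont (SD, n = 3 each). Sort1 averaged between 0.366 and 0.479 TPM in the 4 groups. In siCont the TPM of Ngfr exceeded that of 61.9% of the genes tested, Bdnf 37.6% and Sort1 12.5%.

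Among other neurotrophin genes, Ntf5, which encodes NT-4, had few counts and Ntf3 had none. Ntf5 had 65 counts over the 3 libraries with siKeap1, 95 with siFem1b and 114 with both, against 38 in siCont. It rose with siFem1b (log2 1.25, SE 0.31, edgeR adjusted p = 0.0016) and with both (log2 1.57, SE 0.30, edgeR adjusted p = 0.00013). With siKeap1 its log2 fold change was 0.78 (SE 0.33, edgeR adjusted p = 0.061), which passed when siCont replicate 1 (1.01) or siCont replicate 2 (0.97) was left out. Without siCont replicate 3 it was 0.42, the lowest over the 12 omissions. Ntf3, for NT-3, had 0 counts in all 12 libraries, which allows up to 0.027 CPM with siKeap1 and 0.026 CPM in siCont, from a limit of 3 counts over a group.

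The Trk receptor tyrosine kinases, the other receptors of these ligands, had few counts where they are given here. Ntrk2, the BDNF receptor TrkB, had 25 counts with siKeap1, 44 with siFem1b and 34 with both, against 24 in siCont. Its ratio to siCont was 1.08 (95% Clopper-Pearson interval 0.594 to 1.98), 1.89 (1.13 to 3.26) and 1.55 (0.894 to 2.74) in that order, where the interval covers counting error only. Its adjusted p in edgeR's test was 0.89, 0.082 and 0.30. Ntrk3, the NT-3 receptor TrkC, had 111, 150 and 100 counts in the knockdown groups, against 162 in siCont. It fell with both siRNAs (log2 -0.68, SE 0.23, edgeR adjusted p = 0.015), a call lost without siFem1b/Keap1 replicate 2 (-0.56) or siCont replicate 1 (-0.53). In siCont, Ntrk3 averaged 1.60 ± 0.55 TPM (SD, n = 3).

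**Figure D4:**
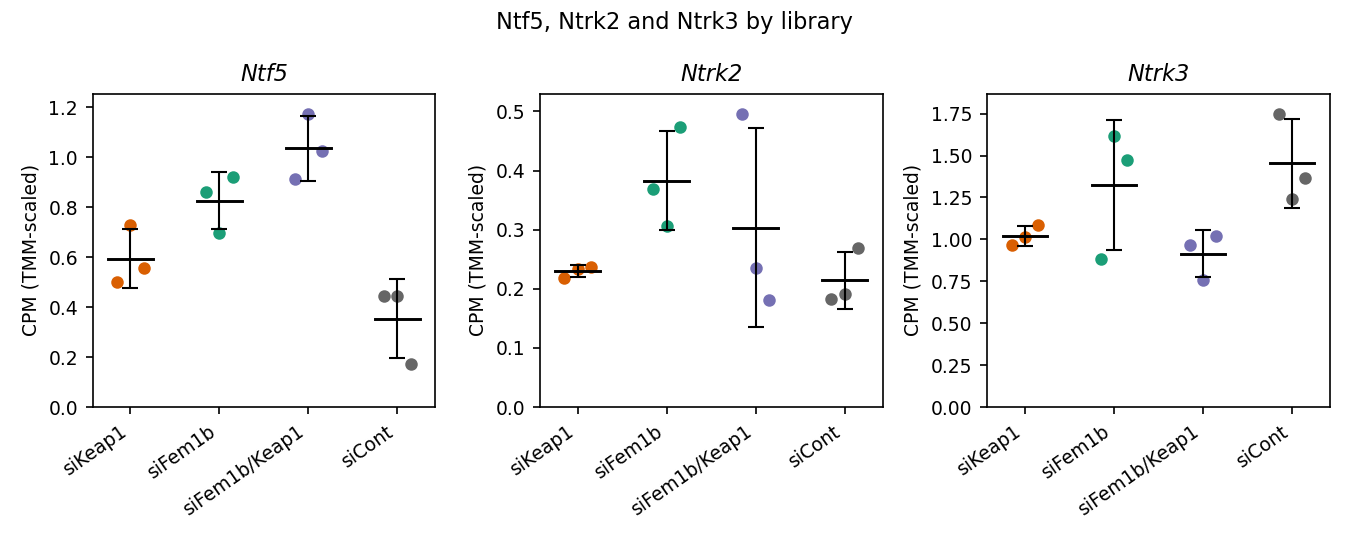
TMM-scaled CPM (y axes, from 0, each with its own scale) of the ligand Ntf5 and the receptors Ntrk2 and Ntrk3. Points are libraries and bars are the mean ± SD of 3. On average Ntf5 is highest with both siRNAs, and Ntrk2 and Ntrk3 stay under 2 CPM in all libraries.

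Sortilin's relatives and p75's other partners held 8 listed genes, of which 6 could be tested. With siKeap1, 1 was higher and 2 lower. With siFem1b, 4 were higher and 0 lower, and with both siRNAs 3 were higher and 1 lower. Of all genes, 18.4% were higher and 23.8% lower with siKeap1, 30% and 32.1% with siFem1b, and 33.8% and 33.7% with both. The median log2 fold change of the 6 was -0.09, 1.19 and 1.10 in that order, against -0.02, -0.01 and 0.01 over all genes. Sorcs1 and Rtn4r, low in siCont and siKeap1, passed the count filter only through the groups with siFem1b. Their rises were thus favoured by the filter, and nothing is read from this median or these counts. Rtn4r, the Nogo receptor through which p75 relays myelin signals, had 9 counts with siKeap1, 60 with siFem1b and 100 with both, against 11 in siCont. Its count ratio to siCont was 5.64 (95% Clopper-Pearson interval 2.94 to 11.9) with siFem1b and 9.96 (5.33 to 20.6) with both. Sorcs1, a sortilin relative, had 2, 151 and 122 counts in the knockdown groups, against 12 in siCont, a ratio of 13.0 (7.23 to 25.7) with siFem1b and 11.1 (6.15 to 22.1) with both. Its siKeap1 ratio was 0.173 (0.0188 to 0.779), which passed edgeR's test (adjusted p = 0.038) and lost the call without siKeap1 replicate 1 or 2, siFem1b replicate 3 or siCont replicate 1 or 3. Without siKeap1 replicate 2 its fitted log2 value was -1.80, the nearest to 0 over the 12 omissions. Rtn4rl1, related to the Nogo receptor, had 84, 178 and 187 counts in the knockdown groups, against 45 in siCont. It rose in all 3 groups, with log2 fold changes of 0.93 (SE 0.27), 1.92 (SE 0.24) and 2.06 (SE 0.24). Sorcs2, a proneurotrophin co-receptor like sortilin and much more abundant here, averaged 176 ± 0.64 CPM with siKeap1, 233 ± 4.1 CPM with siFem1b and 203 ± 4.9 CPM with both, against 196 ± 3.5 CPM in siCont (SD, n = 3 each).

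Proteases that cut proneurotrophins held 9 listed genes and 4 tested. With siKeap1, 1 was higher and 2 lower, with siFem1b 2 and 0, and with both 2 and 2. Of all genes, 42.2%, 62.1% and 67.5% passed either way in that order. Plat, tissue plasminogen activator, which makes the plasmin that cleaves proBDNF, averaged 38.2 ± 1.6 CPM with siKeap1, 44.5 ± 1.5 CPM with siFem1b and 66.0 ± 2.0 CPM with both, against 20.6 ± 0.23 CPM in siCont (SD, n = 3 each). It rose 1.85-fold, 2.16-fold and 3.19-fold in that order, with edgeR adjusted p of 3.4e-11, 5.7e-13 and 1.2e-15. Furin, which cleaves proneurotrophins in the Golgi and was picked after its values were seen, was lower with siKeap1 (log2 -0.51) and with both (log2 -0.40).

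The enzymes that shed p75 and cut it in the membrane held 8 listed genes, all tested. With siKeap1, 2 were higher and 1 lower, with siFem1b 4 and 2, and with both 6 and 2. Adam17, the main p75 sheddase, fell with siFem1b (log2 -0.53) and with both (log2 -0.38). Adam10, a related sheddase, rose with siFem1b (log2 0.31) and with both (log2 0.36). Both were picked after their values were seen. The cytoplasmic adaptors of p75 held 16 listed genes and 14 tested, of which 3 were higher and 5 lower with siKeap1, 3 and 5 with siFem1b, and 4 and 2 with both. Beside both lists, 42.2%, 62.1% and 67.5% of all genes passed either way in that order. Sqstm1, which bridges p75 to TRAF6 and is a known NRF2 target, rose with siKeap1 (log2 0.74) and fell with siFem1b (log2 -0.28). It too was picked after its values were seen. Maged1, the adaptor NRAGE, averaged 371 ± 3.8 CPM with siKeap1, 433 ± 16 CPM with siFem1b and 445 ± 9.3 CPM with both, against 380 ± 2.5 CPM in siCont (SD, n = 3 each).

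Among the other TNF receptors, 21 were listed and 18 tested. With siKeap1, 10 were higher and 3 lower, with siFem1b 8 and 4, and with both 11 and 5. Of all genes, 42.2%, 62.1% and 67.5% passed either way in that order. The median log2 fold change of the 18 receptors was 0.31, 0.30 and 0.59, against -0.02, -0.01 and 0.01 over all genes. Tnfrsf21, death receptor DR6, went lower with siFem1b (log2 -1.28, SE 0.10, edgeR adjusted p = 2.7e-09) and with both (log2 -0.96, SE 0.099, adjusted p = 7.1e-08), and higher with siKeap1 (log2 0.36, SE 0.091, adjusted p = 0.0036). Eda2r, a receptor of ectodysplasin, rose in the 3 groups with log2 fold changes of 0.79 (SE 0.089), 1.05 (SE 0.087) and 1.45 (SE 0.087). Tnfrsf9, the co-stimulatory receptor 4-1BB, averaged 1.98 ± 0.47 CPM with siKeap1, 1.61 ± 0.27 CPM with siFem1b and 5.12 ± 0.45 CPM with both, against 0.805 ± 0.052 CPM in siCont (SD, n = 3 each). The death receptor Fas rose 2.64-fold with siFem1b (edgeR adjusted p = 0.00010) and 3.08-fold with both (adjusted p = 1.4e-05). With siKeap1 its log2 fold change was 0.81 (adjusted p = 0.022), a call lost without siKeap1 replicate 2 (0.52), siCont replicate 1 (0.80) or siCont replicate 2 (0.71). Tnfrsf25, death receptor DR3, rose 2.01-fold with siFem1b (adjusted p = 0.00042) and 1.64-fold with both (adjusted p = 0.0072), the second lost without siFem1b/Keap1 replicate 1 (log2 0.56). Tnfrsf11b, the soluble decoy osteoprotegerin, had 4, 92 and 51 counts in the knockdown groups, against 6 in siCont. It passed the count filter only through the groups with siFem1b.

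Signal relays of the Trk receptors held 14 listed genes and 13 tested, with 3 higher and 5 lower in siKeap1, 4 and 6 in siFem1b, and 2 and 9 with both. Shc2, an adaptor bound by active Trk receptors, fell with siFem1b (log2 -0.94) and with both (log2 -0.69). Kidins220, the scaffold that links p75 and Trk receptors, rose with siFem1b (log2 0.63) and with both (log2 0.57). Shc2 and Kidins220 were picked after their values were seen. Sortilin's sorting partners held 12 genes, all tested, with 2 higher and 4 lower in siKeap1, 5 and 2 in siFem1b, and 4 and 1 with both. Beside both lists, 42.2%, 62.1% and 67.5% of all genes passed either way in that order. Igf2r, the mannose 6-phosphate receptor that travels the same route from Golgi to endosome, averaged 46.4 ± 1.5 CPM with siKeap1, 83.5 ± 3.2 CPM with siFem1b and 103 ± 2.2 CPM with both, against 49.3 ± 1.8 CPM in siCont (SD, n = 3 each). It rose 1.69-fold with siFem1b (edgeR adjusted p = 2.9e-11) and 2.09-fold with both (adjusted p = 1.5e-13), while with siKeap1 the log2 fold change was -0.09 (adjusted p = 0.12).

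Transcription factors linked to neurotrophin signals held 10 genes, all tested. With siKeap1, 4 were higher and 3 lower, with siFem1b 4 and 2, and with both 6 and 3. Of all genes, 42.2%, 62.1% and 67.5% passed either way in that order. Egr2, which neurotrophins induce in nerve, rose with siFem1b (log2 1.13, SE 0.14, edgeR adjusted p = 8.5e-07) and fell with siKeap1 (log2 -0.57, SE 0.16, adjusted p = 0.0072). With both siRNAs its log2 fold change was 0.35 (adjusted p = 0.039), a call lost without any of siFem1b replicate 3, siFem1b/Keap1 replicates 1 and 2 and siCont replicates 2 and 3, at values between 0.31 and 0.35. The immediate-early gene Fos rose with siFem1b (log2 1.34, SE 0.20, adjusted p = 9.4e-06) and with both (log2 1.24, SE 0.20, adjusted p = 2.0e-05). Npas4, an activity-dependent factor that acts on Bdnf in neurons, had 84, 54 and 111 counts in the knockdown groups, against 39 in siCont, of which 25 came from siCont replicate 1. It rose with both siRNAs (log2 1.53, SE 0.39, adjusted p = 0.0021). Its siKeap1 rise (log2 1.13, adjusted p = 0.032) was lost without any of siKeap1 replicates 1 and 2 and siCont replicates 2 and 3, at values between 0.82 and 1.13, and its siFem1b value of 0.42 (adjusted p = 0.42) became 1.27, past the threshold, without siCont replicate 1. Creb1, the cAMP-responsive factor that also acts on Bdnf, fell with siKeap1 (log2 -0.34, SE 0.062), siFem1b (log2 -0.19, SE 0.061) and both (log2 -0.47, SE 0.062).

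**Figure D5:**
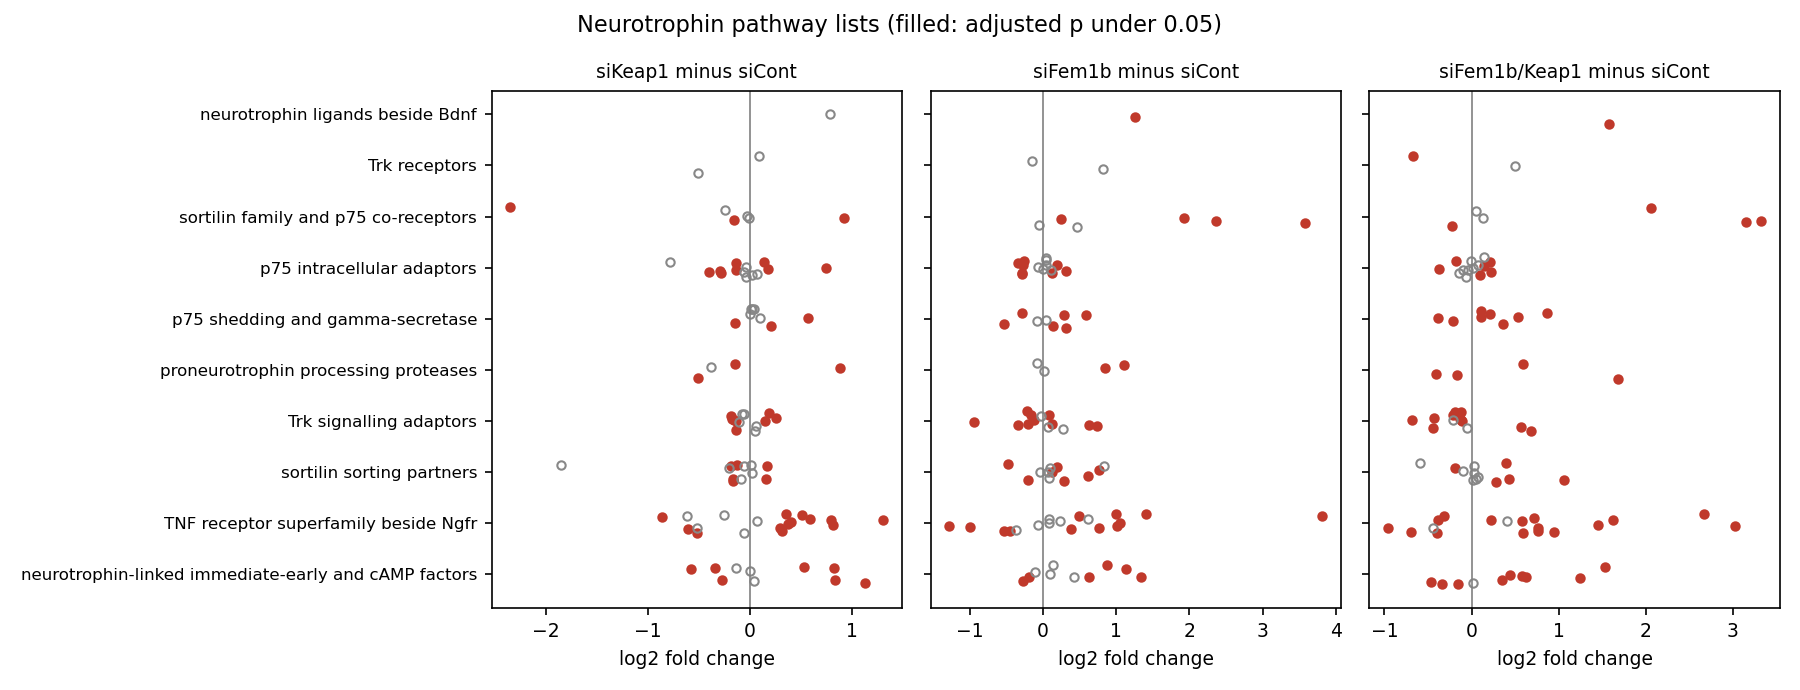
Log2 fold changes against siCont (x axes) of the tested genes of the 10 pathway lists, a point per gene, spread upward or downward at random for legibility. Filled points passed an edgeR adjusted p of 0.05 and open points did not. The widest spreads are among the co-receptors and the TNF receptors. Sorcs1, Rtn4r and Tnfrsf11b, which passed the count filter only through the groups with siFem1b, are among these points.

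Over all 10 lists, 88 of 102 genes were tested. With siKeap1, 26 were higher and 25 lower, with siFem1b 35 and 21, and with both 39 and 26, against 42.2%, 62.1% and 67.5% of all genes called either way. The median log2 fold change of the 88 was -0.03, 0.10 and 0.07, against -0.02, -0.01 and 0.01 over all genes. In the interaction 8 were higher and 7 lower, where 6.11% of all genes were higher and 5.32% lower. As few as 2 were higher without siFem1b/Keap1 replicate 1, and 4 lower without siKeap1 replicate 1 or 3 or siCont replicate 3.

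Genes compared in profile had a mean of at least 1 CPM and a symbol that was neither Gm plus digits nor one ending in Rik. Among these 11513, the genes most like each of the 3 were found by Pearson's r of log2 CPM over the 12 libraries. For Ngfr they were Uhrf1 (r = 0.998), Espl1 (0.995), Cdca8 (0.995), Prrc2b (0.995) and Phf10 (0.994). Their log2 fold changes were smaller than those of Ngfr. With siKeap1, siFem1b and both, Uhrf1 had -0.40, -0.68 and -1.25, and Phf10 had -0.23, -0.44 and -0.80. For Bdnf they were Fam110c (r = 0.942), Syk (0.938), Tnfrsf10b (0.935), Adam22 (0.929) and Arhgef5 (0.924). For Sort1 they were Zfp248 (r = 0.853), Vamp4 (0.825), Fam120b (0.804), H2-Q7 (0.779) and Zfp958 (0.769). The 12 points share 4 groups, so these r describe the group profiles and carry no test.

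Ngfr also marks Schwann and neural crest cells, and the markers of these cells were ordered otherwise over the groups. The 8 listed Schwann and neural crest markers summed to between 8.66 and 9.33 CPM with siKeap1, 23.8 and 27.1 CPM with siFem1b and 13.4 and 15.5 CPM with both, against 10.4 to 11.6 CPM in siCont. Most of that was Erbb3, and the defining markers Sox10, Foxd3 and Cdh19 averaged at most 0.019 CPM in any group. The 6 neuron markers summed to between 132 and 134 CPM with siKeap1, 254 and 283 CPM with siFem1b and 290 and 320 CPM with both, against 76.9 to 79.6 CPM in siCont. That sum was mostly Stmn2 and Syn1, while Rbfox3 and Snap25 averaged at most 0.065 CPM. The 6 fibroblast and pericyte markers summed to between 139 and 153 CPM with siKeap1, 300 and 311 CPM with siFem1b and 201.4 and 212.6 CPM with both, against 228 to 232 CPM in siCont. Pdgfrb, at 87.3 CPM with both siRNAs and 147 CPM in siCont, was the 1 member that was lower with both. By contrast, 4 were higher, among them Rgs5, at 8.37 CPM with both and 0.077 CPM in siCont, and Dcn, at 7.86 CPM with both and 1.36 CPM in siCont. Over all genes tested, 33.8% were higher with both siRNAs and 33.7% lower. Rgs5 passed the count filter only through the groups with siFem1b. The endothelial and leukocyte lists stayed between 0.856 and 6.77 CPM in all libraries. The 8 myoblast markers summed to between 1337 and 1438 CPM with siKeap1, 1997 and 2138 CPM with siFem1b and 1676 and 1727 CPM with both, against 1557 to 1587 CPM in siCont. Most of that was Des and Itga7. With both siRNAs, 5 of the 7 tested were higher than in siCont and 2 lower, Myod1 (log2 -0.42) and Cdh15 (log2 -0.34). The shares of all genes were again 33.8% higher and 33.7% lower. Myog, a marker that rises as myoblasts differentiate, averaged 0.037 CPM with siKeap1, 59.3 CPM with siFem1b and 4.97 CPM with both, against 1.57 CPM in siCont. The part of Myog in the Ngfr values was not tested.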

How the data were processed

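Per the submitters' processing notes, the authors quantified poly(A)-selected RNA-seq with kallisto 0.44.0 and mouse build mm10. The 24 deposited tables (12 libraries, 2 runs each) give per transcript an estimated count, a length-corrected abundance (TPM, deposited) and lengths. Estimated counts share reads that fit several transcripts by an estimate. Trimming, strand and filters are not given in the sources used here.

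Of 118489 transcripts, 116728 (98.5%) matched GENCODE M21 (GRCm38) by identifier, and the others, 0.608% to 0.637% of a library's counts, were left out. Estimated counts were summed per gene and over both runs and rounded. TPM were summed per gene and averaged over both runs (weighted by the counts of each run) for levels between genes. edgeR 4.0.16 in R 4.3.3 (filterByExpr, TMM factors from 0.952 to 1.04, robust quasi-likelihood tests, 2-sided, a term per group, all 12 libraries) tested 14577 genes, with Benjamini-Hochberg adjustment over all of them and a threshold of 0.05. Ratios of pathway genes with under 30 counts in a group came from counts, with 95% Clopper-Pearson intervals for counting error only. Tested on simulated data of 14321 genes, siFem1b against siCont recovered 76 of 100 genes changed 1.5-fold and 82 of 100 changed 2-fold, and 10 of 168 calls were false. For the interaction the numbers were 68 and 77, with 12 false among 157 calls. The simulation changed only these genes and only in siFem1b, whereas 62.1% of genes passed for siFem1b against siCont in the data. It therefore does not show how the fit does when so many genes change.

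The 3 genes, the pathway lists and the markers were chosen with earlier results of these data known. Genes named from the lists are ligands and Trk receptors and those past the threshold with at least a 2-fold change against siCont, and a few such genes are not reported here or counted in the lists. The others, named for their role, are Sorcs2, Furin, Adam10, Adam17, Sqstm1, Maged1, Shc2, Kidins220 and Creb1. These were chosen after their values were seen, so they are described without p-values. Alternatives were DESeq2 1.42.0 (size factors, Wald test), library totals, limma-voom (limma 3.58.1), other filters, each run alone, a replicate block, the compared groups only, a threshold of 0.01, shares from TPM, and each library left out.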

Additional observations from a re-analysis of the deposited data

Results flagged for a closer look

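The interaction term of the model, the effect of siFem1b with siKeap1 less its effect without, passed an adjusted p of 0.05 for Ngfr and for some of the other genes described. For Ngfr it was -0.34 on the log2 scale (SE 0.10), with levels of 9.54% of siCont with both siRNAs and 12.1% as the product of the separate ones. Ngfr was among the genes chosen with these results known, so its value is a description, and the call was lost in 7 of 12 omissions of a library and with limma-voom. Among the pathway genes, the interaction was -0.32 for Plat (edgeR adjusted p = 0.0030) and 0.39 for Igf2r (edgeR adjusted p = 0.00027). For Sqstm1, picked after its values were seen, it was -0.37. Among the markers, it was -0.86 for Stmn2 (edgeR adjusted p = 5.9e-08), -0.56 for Pdgfra (0.0039) and -0.30 for Myod1 (0.0080). It was 1.70 for Myog (SE 0.52, edgeR adjusted p = 0.039) and 1.19 for Dcn (SE 0.34, 0.029). For Rgs5 it was 2.38 (SE 0.76), given without a p-value because Rgs5 passed the count filter only through the groups with siFem1b. Myog, Dcn and Rgs5 had few counts, with siKeap1 4, 29 and 10 over the 3 libraries, and Rgs5 had 9 in siCont. Marker calls were not checked with libraries left out. Over all genes tested, 11.4% passed the interaction test.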

How the results depend on the processing

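The 3 genes were chosen with earlier results known, so their calls here describe the processing and are not a test. Over the alternatives, 444 values of the 3 genes kept their direction and side of the threshold, 10 lost a call, 3 gained one and 16 changed sign. Ngfr kept both in each pairwise comparison under each alternative. Its interaction lost the call with limma-voom (-0.34), the first run alone (-0.21) and a threshold of 0.01 (-0.34), and ranged over left-out libraries between -0.42 and -0.28, lost in 7 of 12. Sort1 passed the threshold with the first run alone for siKeap1 (0.79) and both siRNAs (0.73), and with library totals for both (0.40). Library totals moved the median of all genes for both siRNAs to 0.13, against 0.01 with TMM.

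Values near 0 changed sign. Bdnf with siFem1b became 0.041 with library totals and 0.028 with the first run. For both siRNAs against siKeap1, Bdnf became 0.070 with library totals, 0.012 with the 5 CPM filter and 0.014 with the first run, and left-out libraries gave -0.085 to 0.010. Sort1 in that comparison became 0.034 with library totals and -0.17 to 0.037 over left-out libraries, and against siFem1b -0.017 to 0.17. The Bdnf interaction became -0.015 with the first run and -0.0041 with the second, and -0.045 to 0.087 over left-out libraries. The cause was not tested.

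Pathway genes lower with siKeap1 numbered 7 with the first run and 16 at a threshold of 0.01, and those lower with both siRNAs 14 with library totals. Interaction counts were 3 higher with either run alone, 3 higher and 4 lower at 0.01, and 2 to 9 higher and 4 to 10 lower over left-out libraries. Shares moved for Bdnf-205 with siFem1b (91.0% and 93.8% by run) and Sort1-203 with siKeap1 (66.7%, first run) and siFem1b (88.6% and 29.0% by run). Of values of single named genes, 79 lost and 17 gained a call.

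Same-numbered libraries did not deviate together (correlations -0.08 to 0.12, 1 of 18 pairs over 0.1, and 3 of 12 libraries closest to their own number). With the replicate block, Ngfr stood at -3.39 with both siRNAs, and no call of the 3 genes changed. Depth limits Sort1, the Trk receptors and Ntf5, and no protein was measured.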
